A study of Mus musculus with 7 samples.

Results

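Ubiquitin-conjugating enzymes (the Ube2 family) and ubiquitin-specific proteases (the Usp family) were followed in mouse B cells, plasmablasts and plasma cells. The members were chosen by name and by detection: array probes whose gene symbol starts with Ube2, or is Usp followed by a digit, without Usp18 and Usp9y, and with a detection p-value under 0.01 on at least 2 of 7 arrays. The names covered 115 probes for 72 genes. Of these, 69 probes for 48 genes passed the detection rule, 20 Ube2 and 28 Usp genes out of 7425 genes measured in all. Gene expression was read on Illumina single-colour bead arrays from spleen cells of female C57Bl/6J mice aged 10 weeks. Naive B cells (B220+ CD43-, 2 arrays) came from mice without treatment. Plasmablasts (B220mid CD138+, 3 arrays) and plasma cells (B220low CD138+, 2 arrays) were sorted 3 days after lipopolysaccharide (LPS), a bacterial B cell activator. The label "ubiquitin conjugating enzymes and deubiquitinases" held for most members but not all: Usp6nl encodes a Rab GTPase-activating protein with no protease activity, Usp39 encodes a splicing factor that lacks an active protease site, and Ube2f and Ube2l6 encode enzymes that conjugate the ubiquitin relatives NEDD8 and ISG15.

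Ubiquitin is activated by an E1 enzyme, passed to an E2 conjugating enzyme and placed on a substrate with the help of an E3 ligase, and deubiquitinases take it off again. The E2 largely sets which kind of chain is built, and with it whether the substrate goes to the proteasome, enters a signalling complex or has its activity altered. In cells that make antibody, E2 enzymes anchored in the endoplasmic reticulum (ER) serve the pathway that returns misfolded secretory protein to the cytosol for degradation, and in dividing cells E2 enzymes of the anaphase-promoting complex mark mitotic regulators for destruction.

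The promoters of 4 members are shown because their genes stand for the 3 patterns described below: Ube2s and Ube2t (cell division and DNA repair) and Ube2j1 (ER) were highest in plasmablasts, and Ube2f (NEDD8) was lowest there. Each line gives the 250 bases before the transcription start, 5′ to 3′ on the gene's strand, from RefSeq (build GRCm38.p6). Capitals mark matches to CCAAT (the CCAAT box), CCACG (the core shared by ER stress elements) or TTTGAA (the cell cycle homology region), searched on both strands, and no matches overlapped.
Ube2t, chr1:134962315-134962564, plus strand: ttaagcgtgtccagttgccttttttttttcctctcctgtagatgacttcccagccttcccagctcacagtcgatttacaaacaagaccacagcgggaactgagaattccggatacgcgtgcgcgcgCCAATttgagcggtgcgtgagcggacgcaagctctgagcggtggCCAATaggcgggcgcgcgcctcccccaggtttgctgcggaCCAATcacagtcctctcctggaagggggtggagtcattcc
Ube2s, chr7:4812341-4812590, minus strand: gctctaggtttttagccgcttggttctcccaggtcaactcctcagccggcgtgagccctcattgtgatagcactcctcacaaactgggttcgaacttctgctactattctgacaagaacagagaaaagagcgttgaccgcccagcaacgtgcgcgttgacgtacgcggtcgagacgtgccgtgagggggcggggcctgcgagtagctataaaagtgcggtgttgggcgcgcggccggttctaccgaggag
Ube2j1, chr4:33031130-33031379, plus strand: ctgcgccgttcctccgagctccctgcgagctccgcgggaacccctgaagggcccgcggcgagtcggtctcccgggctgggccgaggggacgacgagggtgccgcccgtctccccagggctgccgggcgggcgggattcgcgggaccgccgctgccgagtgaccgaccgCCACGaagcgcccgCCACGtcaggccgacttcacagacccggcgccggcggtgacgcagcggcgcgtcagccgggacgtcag
Ube2f, chr1:91250054-91250303, plus strand, the first of 2 promoters: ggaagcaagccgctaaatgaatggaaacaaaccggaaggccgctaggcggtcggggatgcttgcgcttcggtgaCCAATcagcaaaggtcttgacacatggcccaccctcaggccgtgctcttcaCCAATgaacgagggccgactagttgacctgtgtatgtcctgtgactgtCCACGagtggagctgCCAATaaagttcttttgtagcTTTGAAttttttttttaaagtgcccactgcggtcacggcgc

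The Ube2t window held 3 CCAAT matches, which began 124, 80 and 40 bases before the start. In the Ube2j1 window CCACG occurred at 82 and 68 bases before the start. Ube2f had CCAAT at 176, 125 and 62 bases, CCACG at 77 bases and TTTGAA at 41 bases before its first start, and the second Ube2f promoter held none of the 3 motifs. None of these letters occurred in the Ube2s window, which says nothing on the factors that bind there. Over the full windows from 250 bases before to 50 bases after the start, 36 of the 48 members matched the RefSeq table, with 45 promoters. CCACG was present in 55.6% of these 45 and in 32.8% of all 32851 promoters, CCAAT in 17.8% and 37.4%, and TTTGAA in 4.4% and 17.9%. These shares describe the letters present and were not tested.

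Each array had 8817 to 9930 probes above background (34.3 to 38.6% of its probes). Over genes, arrays of 1 population correlated at 0.994 or more and arrays of different populations at 0.828 or less (Pearson's r, genes not being independent). The sorted populations were checked against marker genes. Summed signal of the 5 plasma cell markers was 7875 to 7939 in naive B cells, 53760 to 55920 in plasmablasts and 39930 to 42650 in plasma cells, and that of the 4 measured B cell markers was 50830 to 51930, 19690 to 20510 and 9086 to 9346. Pax5, a defining B cell factor, was above background on no array. Markers of other cells were present. Of 18 listed myeloid markers 13 were measured. They summed to 31020 to 36650 in naive B cells, 2455 to 6571 in plasmablasts and 58290 to 59320 in plasma cells. By the test described below, 7 of the 13 were higher and 5 lower in plasma cells than in naive B cells. Those lower were C1qa, C1qb, C1qc, Fcna and Vcam1. The 7 measured erythroid and platelet markers summed to 23490 to 31780, 268 to 285.9 and 334.4 to 369. The 7 measured T and NK cell markers summed to 392.2 to 431.5, 1144 to 1812 and 4026 to 4161. The 7 measured genes of cycling cells summed to 1734 to 1776 in naive B cells, 22930 to 24340 in plasmablasts and 5446 to 6945 in plasma cells. The labels do not say whether replicates came from separate animals, and a p-value here covers nothing beyond the spread of the arrays at hand. All arrays lay on 1 chip with each population in neighbouring positions, so position and population cannot be told apart.

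Levels below are normalized log2 signals, for which 1 unit is a 2-fold difference, and a gene was called at an adjusted p under 0.05 (limma, Benjamini-Hochberg over all 7425 genes). Differences carry their standard error (SE). Where all arrays of the lower population lay below background, the fold is a lower limit and is written "at least". On the 7 arrays the dimmest probe above background read 6.27 to 6.79.

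Plasmablasts differed from naive B cells in 37 of 48 members (77.1%, against 73.1% of all genes). Of these, 23 were higher (47.9%, against 35.3% of all genes) and 14 lower (29.2%, against 37.8%). Changes of at least 2-fold were called for 16 members (33.3%, against 33.0% of all genes), 11 higher and 5 lower. The members had a median difference of 0.25, which became 0.18 when each bounded change was put at its limit, and all genes had one of -0.02. The Usp genes had 16 higher and 6 lower of 28, and the Ube2 genes 7 higher and 8 lower of 20. In bulk samples such as these, fewer cells of a type and less RNA per cell cannot be told apart.

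Plasma cells differed from naive B cells in 27 of 48 members (56.2%, against 71.1% of all genes), 13 higher and 14 lower, where 33.3% of all genes were higher and 37.8% lower. The median was -0.04, beside -0.08 for all genes. Changes of at least 2-fold were called for 6 members (12.5%, against 31.2% of all genes), 2 higher and 4 lower. With cyclic loess normalization in place of quantile normalization the split was 18 higher and 10 lower, and the median of all genes was 0.09.

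Between plasma cells and plasmablasts 34 of 48 members were called (70.8%, against 74.7% of all genes), 8 higher and 26 lower in plasma cells, where 28.7% of all genes were higher and 46.0% lower. Here 17 of the 28 Usp genes were lower and 3 higher, against 9 lower and 5 higher of the 20 Ube2 genes. Changes of at least 2-fold were called for 10 members (20.8%, against 28.2% of all genes), 4 higher and 6 lower. The members' median was -0.37 and that of all genes -0.22, a gap of -0.15. This gap was -0.06 without plasma cell replicate 2 and with detection asked on at least 3 arrays, -0.10 without naive B replicate 1 or 2, -0.07 with 75th percentile scaling, -0.09 in the authors' normalized table and -0.32 with no detection filter. Cyclic loess moved the median of all genes to -0.01 and the split of the members to 14 higher and 18 lower, with a gap of -0.08. The arrays of plasmablasts and naive B cells did not overlap for 40 members (83.3%, against 82.9% of all genes). For plasma cells and naive B cells there were 36 such members (75%, against 86.0%), and for plasma cells and plasmablasts 39 (81.2%, against 82.8%). Ube2t, Usp37, Usp9x and Usp11 became members through 1 population only and so had to be high there, and without these 4 genes, a choice made after seeing the data, 33, 26 and 30 of 44 members were called (20, 13 and 8 of them higher). Ube2g2, Ube2l6, Usp45 and Usp53 stayed among the 44. Each met the rule only with the arrays of 1 population, since 1 array was above background elsewhere, and so had to be above background there. The 3 comparisons share arrays, so their counts are not independent of each other.

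**Figure D1:**
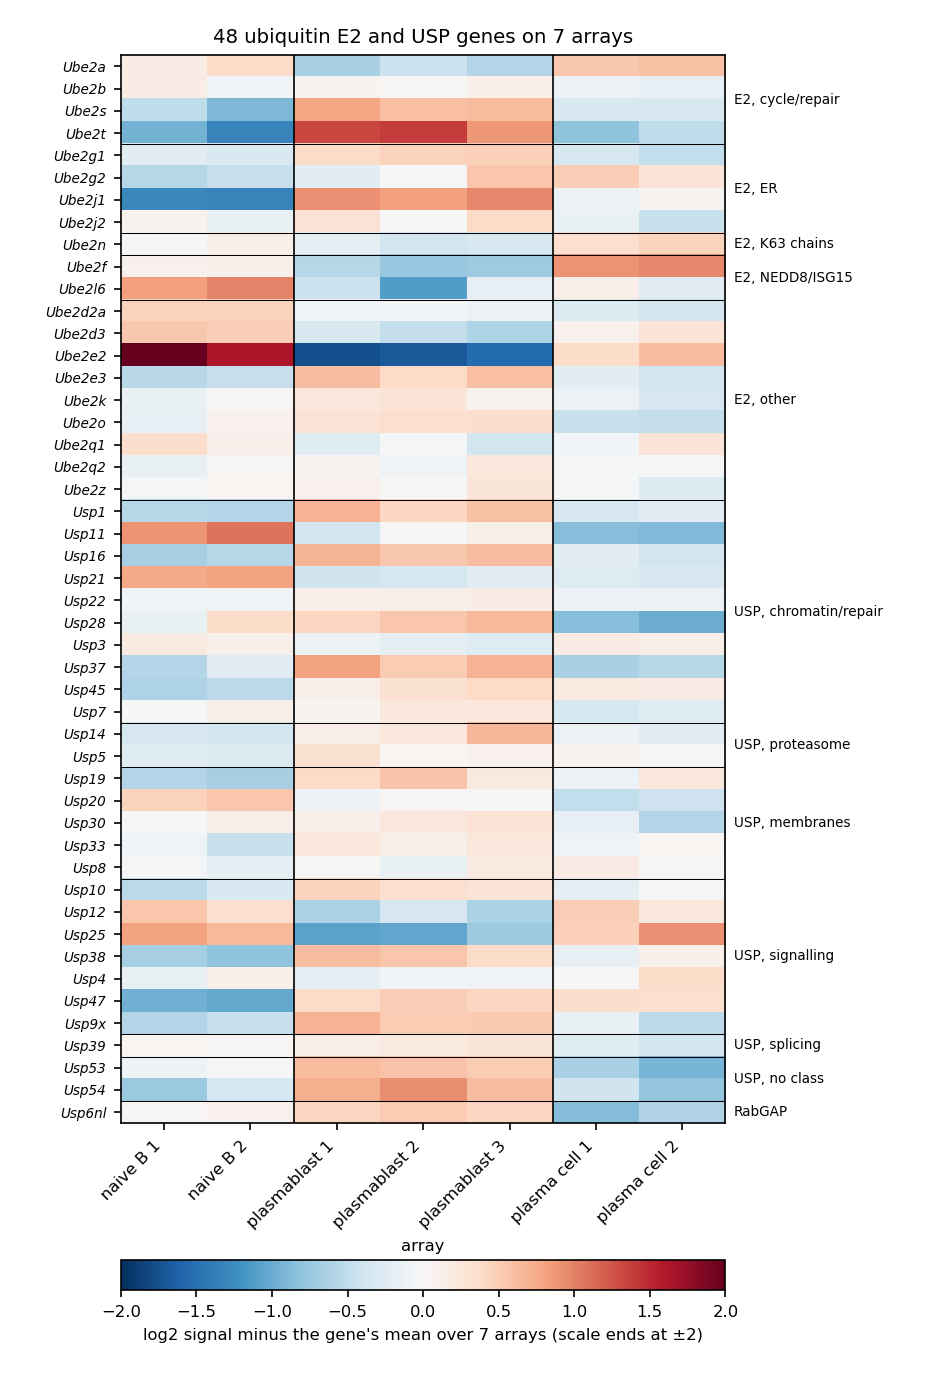
Heat map of 48 members (rows, grouped by role) on 7 arrays (columns), as log2 signal minus the gene's mean over the 7 arrays. Ube2t, Ube2j1, Usp1 and Usp16 are red on the 3 plasmablast arrays, and Ube2e2, Ube2f and Usp25 are blue there.

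**Figure D2:**
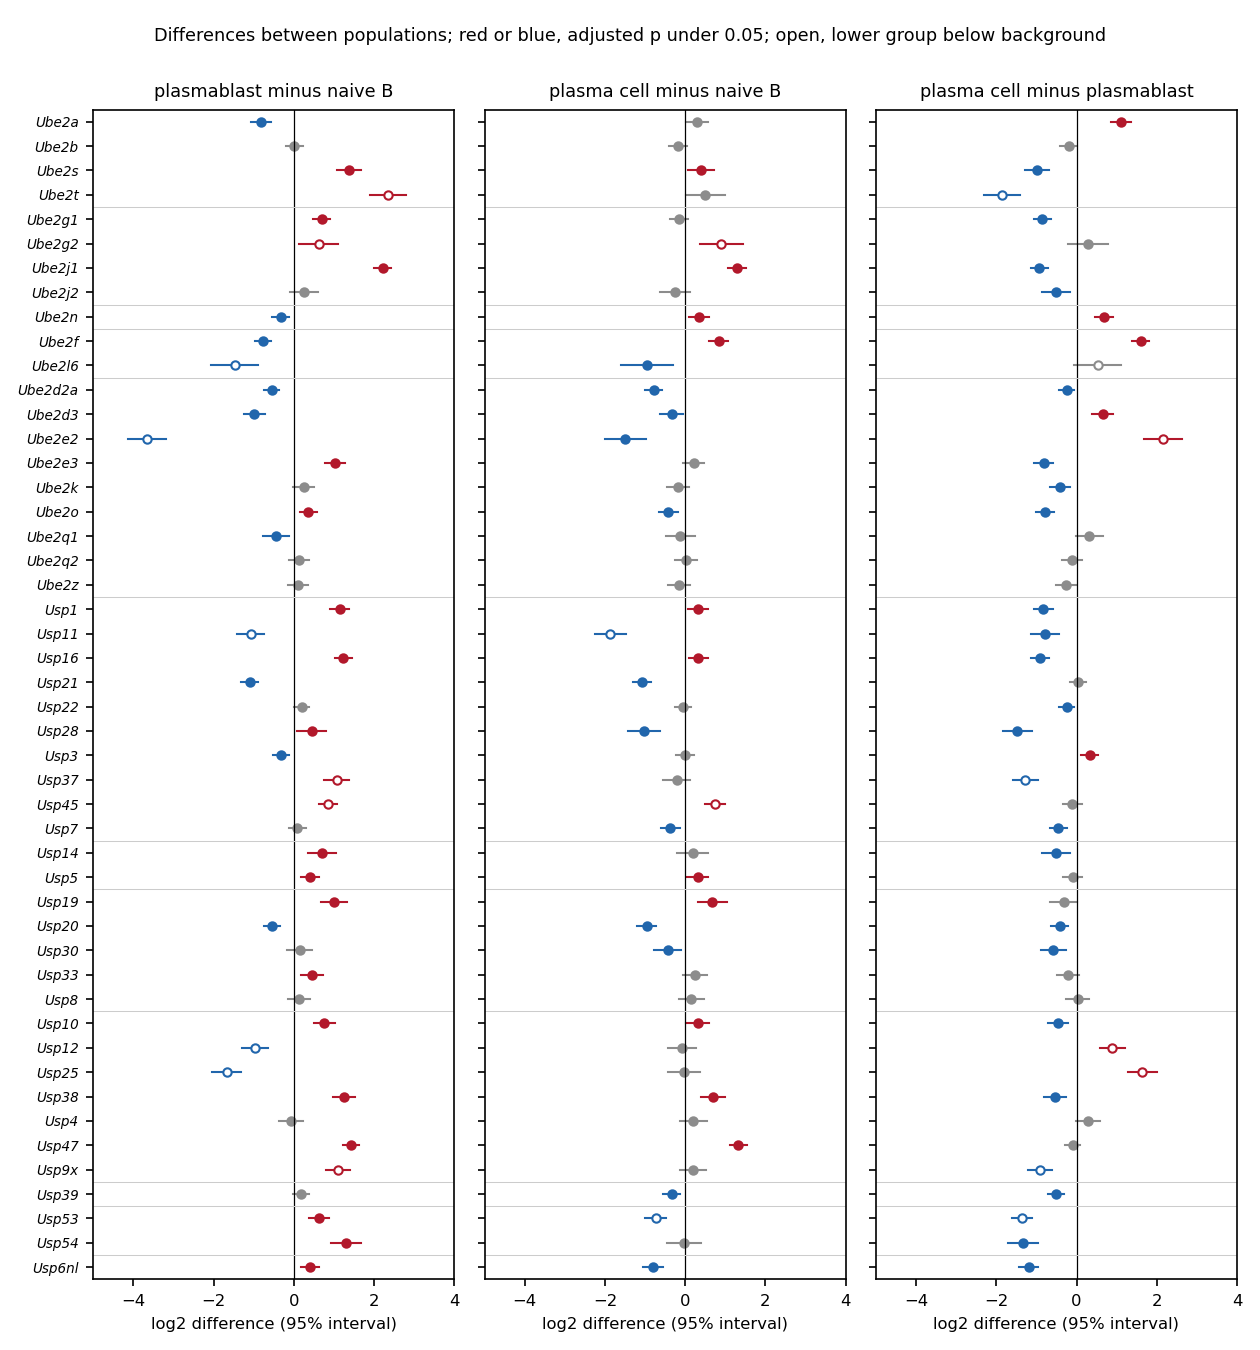
Log2 difference of each member in the 3 comparisons, with 95% intervals. Red and blue points passed an adjusted p under 0.05 and grey points did not; open points mark a lower population below background on all its arrays, where the drawn difference is not a bound. Most points lie right of 0 in the first panel (23 called higher, 14 lower) and left of 0 in the third (8 higher, 26 lower with quantile normalization, 14 and 18 with cyclic loess).

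The E2 enzymes of cell division and DNA repair split. Ube2t, which serves the Fanconi anemia pathway by loading ubiquitin onto FANCD2, read 5.74 and 5.35 in naive B cells, 8.02, 8.09 and 7.56 in plasmablasts and 5.89 and 6.19 in plasma cells. It was above background on the 3 plasmablast arrays and on no other, and met the detection rule through them, so its higher level there is a description with no test. Plasmablasts exceeded naive B cells at least 2.57-fold and plasma cells at least 3.05-fold. Plasma cells and naive B cells, both below background, had an adjusted p of 0.0643.

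Ube2s, which extends chains on substrates of the anaphase-promoting complex, read 6.71 and 6.32 in naive B cells, 8.001, 7.81 and 7.85 in plasmablasts and 6.92 and 6.90 in plasma cells. All plasmablast arrays lay above all others, and 1 of the 2 naive B arrays was below background. The gene rose 2.59-fold from naive B cells to plasmablasts (log2 1.37, SE 0.13, adjusted p = 2.30e-05, limma) and was 1.97-fold lower in plasma cells than in plasmablasts (log2 -0.98, SE 0.13, adjusted p = 0.000189). The smaller difference between plasma cells and naive B cells (0.39, adjusted p = 0.0349, limma) did not pass without naive B replicate 2 (0.19), plasma cell replicate 1 (0.38) or plasma cell replicate 2 (0.39), and was 0.59 without naive B replicate 1. Ube2c, the E2 that starts these chains, was above background on no array and is no member.

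The cycling markers moved with Ube2s and Ube2t: all 7 measured were called higher in plasmablasts than in naive B cells and lower in plasma cells than in plasmablasts, and their part in these results was not tested. The anaphase-promoting complex itself had 8 higher and 3 lower of 12 measured genes in plasmablasts against naive B cells (35.3% and 37.8% of all genes). Its activator Cdc20 rose 14.2-fold (adjusted p = 8.01e-08, limma), Cdc16 1.95-fold and Cdc27 1.88-fold. In plasma cells against plasmablasts 0 of the 12 were higher and 9 lower (28.7% and 46.0% of all genes), Cdc20 by 3.41-fold, Anapc15 by 2.39-fold and Cdc27 by 2.38-fold.

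Ube2a and Ube2b encode near-identical E2 enzymes, the mammalian forms of yeast Rad6, which act on histone H2B and on the replication clamp PCNA. Ube2a read 9.81 and 10.05 in naive B cells, 9.02, 9.23 and 9.07 in plasmablasts and 10.20 and 10.24 in plasma cells. Plasmablasts were the lowest and plasma cells the highest, with no overlap. Ube2a was 1.77-fold lower in plasmablasts than in naive B cells (log2 -0.82, SE 0.11, adjusted p = 0.000182, limma) and 2.16-fold higher in plasma cells than in plasmablasts (log2 1.11, SE 0.11, adjusted p = 3.55e-05). Plasma cells and naive B cells differed by 0.29 and were not called (adjusted p = 0.0528, and 0.0133 to 0.283 over the alternatives).

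Ube2b read 12.07 and 11.87 in naive B cells, 11.98, 11.95 and 12.03 in plasmablasts and 11.82 and 11.76 in plasma cells. These levels stayed within a narrow range, and none of the 3 comparisons was called. The 95% interval of the plasmablast difference from naive B cells was -0.20 to 0.23, and the adjusted p of plasma cells against plasmablasts was 0.0785 (limma).

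The ER group was led by Ube2j1, an E2 anchored in the ER membrane that works with the Hrd1 ligase on misfolded secretory proteins. It read 7.74 and 7.70 in naive B cells, 9.95, 9.86 and 9.99 in plasmablasts and 8.92 and 9.09 in plasma cells. The 3 populations were fully separated, with plasma cells between the others. Ube2j1 rose 4.64-fold in plasmablasts (log2 2.21, SE 0.09, adjusted p = 2.82e-07, limma) and 2.44-fold in plasma cells (log2 1.29, SE 0.10, adjusted p = 1.05e-05), both against naive B cells, and was 1.90-fold lower in plasma cells than in plasmablasts (adjusted p = 4.05e-05). Of all members it had the largest increase in plasmablasts among those above background in both populations.

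Ube2j2, the other ER-anchored E2 of this type, read 7.41 and 7.19 in naive B cells, 7.62, 7.34 and 7.73 in plasmablasts and 7.21 and 6.90 in plasma cells. The plasmablast and naive B arrays overlapped, and neither population differed from naive B cells by the test. Plasma cells were 1.42-fold lower than plasmablasts (log2 -0.51, SE 0.15, adjusted p = 0.0141, limma), a call that was lost without plasma cell replicate 2 (-0.35) and with cyclic loess (-0.19).

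Ube2g1, which extends chains on substrates of cullin-RING ligases, read 10.94 and 10.85 in naive B cells, 11.53, 11.60 and 11.63 in plasmablasts and 10.82 and 10.65 in plasma cells. The gene was highest on the plasmablast arrays. It was 1.61-fold higher there than in naive B cells (log2 0.69, SE 0.09, adjusted p = 0.000189, limma) and 1.80-fold lower in plasma cells than in plasmablasts (log2 -0.85, SE 0.09, adjusted p = 6.40e-05). At the probe used, plasma cells against naive B cells were not called (-0.16, adjusted p = 0.186). Its dimmest probe was called lower in plasma cells (-0.73, adjusted p = 0.00342, limma), and so was the mean of its probes. The remaining probe was not called (-0.21, adjusted p = 0.0813).

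Ube2g2, the E2 of the ER ligase gp78, was dim, at 5.66 and 5.77 in naive B cells, 6.01, 6.20 and 6.79 in plasmablasts and 6.73 and 6.50 in plasma cells. It was above background on both plasma cell arrays, on 1 plasmablast array and on no naive B array. The T and NK cell markers had the same order, with 1, 5 and 7 of 11 above background in naive B cells, plasmablasts and plasma cells, and their part in this result was not tested. Plasma cells were at least 1.06-fold higher than naive B cells. This is given with no test, since Ube2g2 met the detection rule only with the plasma cell arrays. Plasmablasts were called higher than naive B cells (adjusted p = 0.0295, limma), with no fold given since most arrays were below background. That call was lost without naive B replicate 1 or 2 and with no detection filter.

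Among 11 measured partners of these ER enzymes, ligase subunits and channel proteins, 10 were higher and 1 lower in plasmablasts than in naive B cells (35.3% and 37.8% of all genes), with a median of 1.38. Derl3 was at least 46.9-fold higher, Sel1l, a subunit of the Hrd1 ligase, 18.8-fold, and Rnf185 4.04-fold. In plasma cells the count against naive B cells was again 10 higher and 1 lower (33.3% and 37.8% of all genes; median 0.76), with Derl3 at least 15.8-fold, Sel1l 13.3-fold and Derl2 2.25-fold higher. Against plasmablasts 0 were higher and 8 lower in plasma cells (28.7% and 46.0% of all genes), including Syvn1, which encodes Hrd1 itself (1.93-fold).

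**Figure D3:**
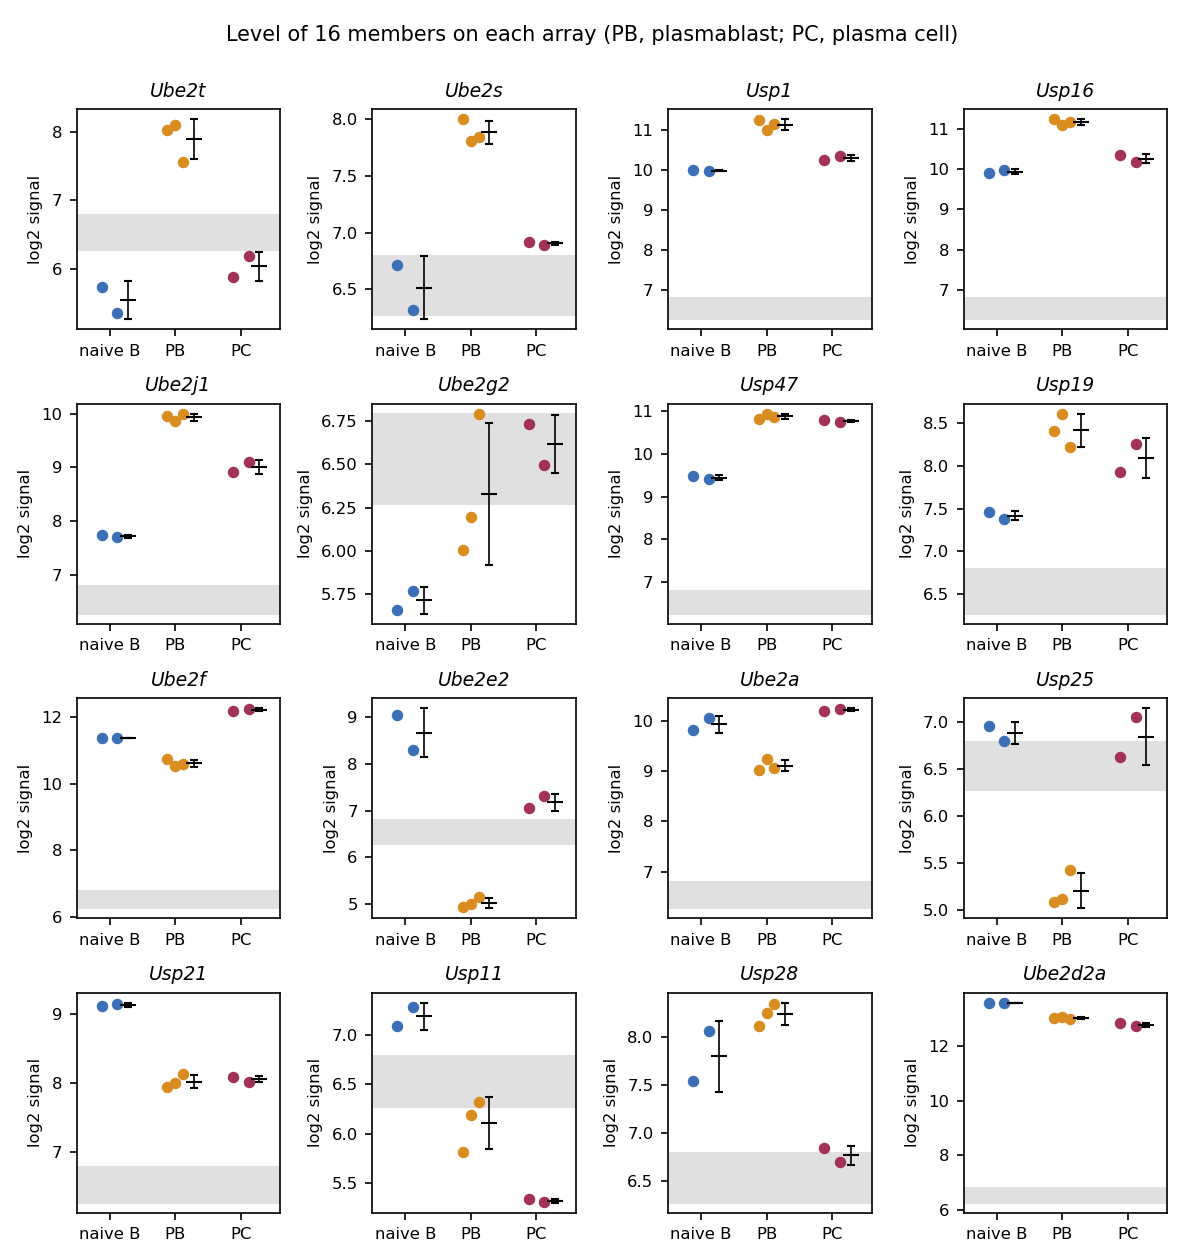
Normalized log2 signal of 16 members on each array, by population (points, arrays; horizontal line and bar, mean and SD of 2 or 3 arrays; grey band, the range over arrays of the lowest signal above background). The vertical scale differs between panels; Ube2j1 reads 7.70 to 7.74 in naive B cells and 9.86 to 9.99 in plasmablasts, and Ube2f reads 10.54 to 10.73 in plasmablasts and 12.19 to 12.25 in plasma cells.

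The E2 enzymes for ubiquitin relatives, Ube2f and Ube2l6, were both lower in plasmablasts than in naive B cells but parted in plasma cells. Ube2f, which passes NEDD8 to the cullin Cul5, read 11.39 and 11.39 in naive B cells, 10.73, 10.54 and 10.58 in plasmablasts and 12.19 and 12.25 in plasma cells. No arrays overlapped, with plasmablasts lowest and plasma cells highest. Ube2f was 1.71-fold lower in plasmablasts than in naive B cells (log2 -0.77, SE 0.09, adjusted p = 9.24e-05, limma) and 3.04-fold higher in plasma cells than in plasmablasts (log2 1.60, SE 0.09, adjusted p = 1.91e-06). It was also 1.78-fold higher in plasma cells than in naive B cells (adjusted p = 0.000119, limma). Across its 4 probes the 3 differences ran from -1.23 to -0.77, from 0.47 to 0.83 and from 1.46 to 1.70, and every probe was called in each.

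Of 14 measured genes of the NEDD8 pathway, 4 were higher and 4 lower in plasmablasts than in naive B cells (57.1% called, against 73.1% of all genes). Plasma cells had 0 higher and 6 lower against naive B cells (42.9% called, against 71.1%), and 1 higher and 8 lower against plasmablasts (64.3% called, against 74.7%). Nae1, a subunit of the NEDD8 E1, was 2.26-fold lower in plasmablasts and 2.68-fold lower in plasma cells than in naive B cells. Cul5, the partner of Ube2f, was 1.49-fold lower in plasma cells than in naive B cells (adjusted p = 0.00176, limma).

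Ube2l6, the E2 for the interferon-induced modifier ISG15, read 7.01 and 7.19 in naive B cells, 5.76, 5.09 and 6.02 in plasmablasts and 6.32 and 5.98 in plasma cells. It was above background on both naive B arrays and on 1 plasma cell array. Plasmablasts were at least 1.35-fold lower than naive B cells, and plasma cells 1.93-fold lower (log2 -0.95, SE 0.28). The plasma cell difference was -0.85 without naive B replicate 2 and -0.77 without plasma cell replicate 2. Both differences are given with no test, since Ube2l6 met the detection rule only with the naive B arrays. In the same pathway Isg15 rose 6.94-fold in plasmablasts and 4.19-fold in plasma cells, while its E1 gene Uba7 was 3.11-fold and 2.78-fold lower, each against naive B cells.

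Ube2n encodes Ubc13, which builds the lysine-63 chains of signalling and DNA repair. It read 8.12 and 8.26 in naive B cells, 7.95, 7.77 and 7.85 in plasmablasts and 8.49 and 8.59 in plasma cells. The order was the same as for Ube2f, with small steps. Ube2n was 1.60-fold higher in plasma cells than in plasmablasts (log2 0.68, SE 0.10, adjusted p = 0.000297, limma). The plasmablast difference from naive B cells (-0.33, adjusted p = 0.0131) did not pass without naive B replicate 2 (-0.26), and that of plasma cells from naive B cells (0.35, adjusted p = 0.017) did not pass without naive B replicate 1 (0.28) or plasma cell replicate 2 (0.30). Of 7 measured ligases that work with lysine-63 chains, 4 were higher and 2 lower in plasmablasts than in naive B cells (35.3% and 37.8% of all genes), the latter being Traf2 (at least 1.86-fold) and Birc3 (at least 1.56-fold).

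Among the other E2 genes the largest difference was that of Ube2e2. It read 9.04 and 8.31 in naive B cells, 4.92, 4.99 and 5.14 in plasmablasts and 7.05 and 7.30 in plasma cells. The gene was below background on all 3 plasmablast arrays and above it on all others. Plasmablasts were at least 4.01-fold lower than naive B cells (adjusted p = 1.19e-06, limma), plasma cells were 2.83-fold lower than naive B cells (log2 -1.50, SE 0.22, adjusted p = 0.000418), and plasma cells were at least 1.42-fold higher than plasmablasts (adjusted p = 3.06e-05). Its close relative Ube2e3 had the opposite order, at 8.97 and 9.07 in naive B cells, 10.14, 9.90 and 10.12 in plasmablasts and 9.31 and 9.15 in plasma cells. Ube2e3 rose 2.05-fold in plasmablasts (log2 1.03, SE 0.11, adjusted p = 4.26e-05, limma) and was 1.77-fold lower in plasma cells than in plasmablasts (adjusted p = 0.000185). Plasma cells against naive B cells were not called at this probe (0.21, adjusted p = 0.136) but were at its second probe (0.39, adjusted p = 0.0131).

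The Ube2d genes encode E2 enzymes that many ligases share, and their sequences are so alike that probes may read more than 1 of them. Ube2d2a read 13.56 and 13.55 in naive B cells, 13.01, 13.04 and 12.97 in plasmablasts and 12.82 and 12.72 in plasma cells. Naive B cells were above both other populations. The gene was 1.46-fold lower in plasmablasts (log2 -0.55, SE 0.08, adjusted p = 0.000368, limma) and 1.73-fold lower in plasma cells (log2 -0.79, SE 0.09, adjusted p = 8.41e-05). The further step from plasmablasts to plasma cells (-0.24, adjusted p = 0.0252) was lost without plasmablast replicate 1 (-0.24) or 2 (-0.22) or plasma cell replicate 2 (-0.19), and was 0.01 with cyclic loess. This step was also lost in the mean of the gene's probes, and was -0.003 at the dimmer probe (adjusted p = 0.984, limma). That probe was called lower than naive B cells in plasmablasts (-0.72) and in plasma cells (-0.73).

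Ube2d3 read 8.66 and 8.62 in naive B cells, 7.81, 7.64 and 7.51 in plasmablasts and 8.21 and 8.40 in plasma cells. Plasmablasts were lowest. The fall in plasmablasts was 1.98-fold (log2 -0.98, SE 0.11, adjusted p = 7.77e-05, limma), and plasma cells were 1.57-fold above plasmablasts (adjusted p = 0.000928). The plasma cell difference from naive B cells (-0.33, adjusted p = 0.0386) was lost without naive B replicate 1 (-0.31) or 2 (-0.35), plasmablast replicate 2 (-0.33) or plasma cell replicate 1 (-0.25), and with cyclic loess (-0.10).

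Smaller changes were seen for the remaining E2 genes. Ube2o, a large enzyme that joins E2 and E3 activity in 1 protein, read 10.38 and 10.62 in naive B cells, 10.83, 10.87 and 10.89 in plasmablasts and 10.09 and 10.06 in plasma cells. It was lowest in plasma cells, 1.72-fold below plasmablasts (log2 -0.79, SE 0.10, adjusted p = 0.00013, limma) and 1.34-fold below naive B cells (adjusted p = 0.00686). The rise from naive B cells to plasmablasts (0.36, adjusted p = 0.00866) was lost without naive B replicate 1 (0.25).

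Ube2k, which assembles lysine-48 chains, read 11.27 and 11.43 in naive B cells, 11.63, 11.66 and 11.48 in plasmablasts and 11.29 and 11.07 in plasma cells. Plasma cells were 1.33-fold below plasmablasts (log2 -0.41, SE 0.11, adjusted p = 0.00888, limma), a call lost without plasma cell replicate 2 (-0.30) and with cyclic loess (-0.19). At this probe neither plasmablasts (0.24, adjusted p = 0.0766) nor plasma cells (-0.17, adjusted p = 0.229) were called against naive B cells. The dimmer Ube2k probe was called in both (0.23, adjusted p = 0.0377, and -0.34, adjusted p = 0.0103) and between the LPS populations (-0.56, adjusted p = 0.000382). Ube2z, which is charged by the second ubiquitin E1 Uba6, read 8.25 and 8.33, then 8.37, 8.28 and 8.52, then 8.24 and 8.02 in the same order. No comparison was called for Ube2z or for Ube2q2. At the probe used, Ube2q1 was called only as lower in plasmablasts than in naive B cells (-0.45, adjusted p = 0.0221, limma). This was lost without naive B replicate 1 (-0.33), plasmablast replicate 1 (-0.43) or plasmablast replicate 3 (-0.37), and with 75th percentile scaling (-0.22). Its dimmer probe was called lower than naive B cells in plasmablasts (-0.64, adjusted p = 0.00103) and in plasma cells (-0.50, adjusted p = 0.00679).

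Of the 10 Usp genes of chromatin and DNA repair, 5 were higher and 3 lower in plasmablasts than in naive B cells, where 35.3% of all genes were higher and 37.8% lower. Against plasmablasts, plasma cells had 1 higher and 7 lower (28.7% and 46.0% of all genes). Usp1, which removes ubiquitin from FANCD2 and PCNA, read 9.99 and 9.96 in naive B cells, 11.25, 10.98 and 11.14 in plasmablasts and 10.24 and 10.35 in plasma cells. Plasmablasts stood above both others. Usp1 rose 2.21-fold in plasmablasts (log2 1.15, SE 0.10, adjusted p = 1.75e-05, limma) and was 1.78-fold lower in plasma cells than in plasmablasts (log2 -0.83, SE 0.10, adjusted p = 0.000138). The remaining excess in plasma cells over naive B cells (0.32, adjusted p = 0.0324) was lost without naive B replicate 1 (0.33) or 2 (0.31) or plasma cell replicate 2 (0.26).

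Usp16, a histone H2A deubiquitinase of mitosis, read 9.90 and 9.99 in naive B cells, 11.24, 11.11 and 11.19 in plasmablasts and 10.35 and 10.19 in plasma cells. Plasmablasts stood above plasma cells, and plasma cells above naive B cells. The gene rose 2.36-fold in plasmablasts (log2 1.24, SE 0.09, adjusted p = 6.28e-06, limma) and was 1.88-fold lower in plasma cells than in plasmablasts (adjusted p = 4.62e-05). Its plasma cell difference from naive B cells (0.33, adjusted p = 0.0191) was lost without naive B replicate 1 (0.29) or plasma cell replicate 1 (0.25).

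Usp37, which stabilizes cyclin A, read 5.66 and 6.03 in naive B cells, 7.05, 6.75 and 6.93 in plasmablasts and 5.59 and 5.68 in plasma cells. It met the detection rule through the plasmablast arrays alone, so its higher level there, at least 1.30-fold over naive B cells and 1.55-fold over plasma cells, is given with no test. The cycling markers given earlier were also highest in plasmablasts, and their part was not tested. The substrate genes Fancd2 and Fanci, partners of Ube2t and Usp1, were at least 3.26-fold and at least 2.09-fold higher in plasmablasts than in naive B cells, and at least 3.87-fold and at least 2.49-fold lower in plasma cells than in plasmablasts. Both genes were below background on all naive B and plasma cell arrays and met the detection rule through plasmablasts alone. Their higher level there is likewise given with no test.

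Usp28, a deubiquitinase of Myc and of the DNA damage response, read 7.54 and 8.06 in naive B cells, 8.12, 8.25 and 8.35 in plasmablasts and 6.84 and 6.69 in plasma cells. Plasma cells lay below both others. They were 2.77-fold lower than plasmablasts (log2 -1.47, SE 0.16, adjusted p = 5.95e-05, limma) and 2.04-fold lower than naive B cells (log2 -1.03, SE 0.17, adjusted p = 0.000803). Plasmablasts and naive B cells were closer (0.44, adjusted p = 0.032), and this call was lost without naive B replicate 1 (0.18), plasmablast replicate 2 (0.43) or plasmablast replicate 3 (0.38), while the value was 0.70 without naive B replicate 2.

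Usp21, a histone H2A deubiquitinase, read 9.10 and 9.15 in naive B cells, 7.94, 7.99 and 8.12 in plasmablasts and 8.08 and 8.02 in plasma cells. Both LPS populations were below naive B cells and overlapped each other. The gene was 2.15-fold lower in plasmablasts (log2 -1.11, SE 0.09, adjusted p = 9.71e-06, limma) and 2.11-fold lower in plasma cells (log2 -1.07, SE 0.10, adjusted p = 2.44e-05). The interval of the difference between the LPS populations was -0.17 to 0.24.

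Usp11, linked to homologous recombination, read 7.09 and 7.28 in naive B cells, 5.82, 6.19 and 6.32 in plasmablasts and 5.34 and 5.31 in plasma cells. Only the naive B arrays were above background, which put Usp11 just inside the detection rule. It was at least 1.43-fold lower in plasmablasts and at least 1.88-fold lower in plasma cells, and no test is given since naive B cells alone made it a member. The naive B arrays also carried erythroid and platelet transcripts: 6 of the 7 measured markers were above background there, none on a plasmablast array and 1, Klf1, on a plasma cell array. The part of such cells in the naive B levels of Usp11, Usp21, Ube2e2 and Ube2l6 was not tested.

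Usp3 read 10.54 and 10.46 in naive B cells, 10.27, 10.18 and 10.10 in plasmablasts and 10.53 and 10.48 in plasma cells. This H2A deubiquitinase was slightly lower in plasmablasts than in naive B cells (-0.32, adjusted p = 0.00981, limma, lost without naive B replicate 1, where it was -0.28) and 1.25-fold higher in plasma cells than in plasmablasts (adjusted p = 0.00943). Naive B cells and plasma cells overlapped, with an interval of -0.22 to 0.22.

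Usp7, which acts on Mdm2 and p53, read 9.82 and 9.93 in naive B cells, 9.86, 10.01 and 10.02 in plasmablasts and 9.46 and 9.55 in plasma cells. Plasma cells were lowest, 1.37-fold below plasmablasts (log2 -0.46, SE 0.09, adjusted p = 0.00226, limma). Their difference from naive B cells (-0.37, adjusted p = 0.0113) was lost without naive B replicate 2 (-0.31) or plasma cell replicate 1 (-0.32) and with cyclic loess (-0.24).

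Usp22, a subunit of the SAGA chromatin complex, read 10.00 and 9.97 in naive B cells, 10.16, 10.16 and 10.21 in plasmablasts and 9.93 and 9.93 in plasma cells. Its 1 call, lower in plasma cells than in plasmablasts (-0.25, adjusted p = 0.0183, limma), was lost without plasmablast replicate 3 (-0.23) or plasma cell replicate 1 (-0.25) or 2 (-0.25), and with cyclic loess (-0.06). Usp45, which acts in nucleotide excision repair, read 5.66 and 5.73 in naive B cells, 6.39, 6.58 and 6.67 in plasmablasts and 6.45 and 6.44 in plasma cells. Both plasma cell arrays and 1 plasmablast array were above background. Naive B cells were below it and below both others, by at least 1.01-fold for plasmablasts (adjusted p = 0.000107). Plasma cells lay under the background limit of the naive B arrays, so no fold is given for their difference. No test of it is given either, since Usp45 met the detection rule only with the plasma cell arrays.

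Both Usp genes of the proteasome and of free chains were called higher in plasmablasts than in naive B cells, where 35.3% of all genes were higher. Usp14, which sits on the proteasome and trims chains, read 7.39 and 7.37 in naive B cells, 7.87, 7.96 and 8.40 in plasmablasts and 7.61 and 7.51 in plasma cells. It rose 1.62-fold in plasmablasts (log2 0.70, SE 0.15, adjusted p = 0.00364, limma). Plasma cells were below plasmablasts (-0.51, adjusted p = 0.0162), a call lost without plasma cell replicate 2 (-0.46) and with cyclic loess (-0.20).

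Usp5, which takes apart unanchored chains, read 8.36 and 8.30 in naive B cells, 8.89, 8.63 and 8.68 in plasmablasts and 8.66 and 8.62 in plasma cells. Naive B cells were lowest and the LPS populations overlapped. The rise was 1.32-fold in plasmablasts (log2 0.40, SE 0.10, adjusted p = 0.00673, limma). The plasma cell difference of 0.31 (adjusted p = 0.0358) was lost without naive B replicate 1 (0.33), naive B replicate 2 (0.28), plasma cell replicate 1 (0.29) or plasma cell replicate 2 (0.33).

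Among the Usp genes of membranes and organelles, Usp19, which has an ER-anchored form, read 7.46 and 7.38 in naive B cells, 8.42, 8.61 and 8.22 in plasmablasts and 7.93 and 8.26 in plasma cells. Both LPS populations were above naive B cells and overlapped each other. Usp19 rose 2.00-fold in plasmablasts (log2 1.00, SE 0.14, adjusted p = 0.000297, limma) and 1.60-fold in plasma cells (log2 0.67, SE 0.15, adjusted p = 0.00471).

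Usp20 and Usp33 encode a pair of related proteases bound by the von Hippel-Lindau protein. Usp20 read 8.44 and 8.55 in naive B cells, 7.86, 8.01 and 7.99 in plasmablasts and 7.49 and 7.57 in plasma cells. It fell 1.45-fold in plasmablasts (log2 -0.54, SE 0.09, adjusted p = 0.000734, limma) and 1.95-fold in plasma cells (log2 -0.96, SE 0.10, adjusted p = 4.77e-05), and its step between the LPS populations (-0.42, adjusted p = 0.00284) was -0.11 and not called with cyclic loess. Usp33 was called only as higher in plasmablasts than in naive B cells (0.46, adjusted p = 0.00817), which was lost without naive B replicate 2 (0.28).

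Usp30, a deubiquitinase of the mitochondrial outer membrane, read 7.26 and 7.41 in naive B cells, 7.38, 7.50 and 7.57 in plasmablasts and 7.11 and 6.69 in plasma cells. Plasma cells were lowest and the second of their arrays lower than the first. They were 1.50-fold below plasmablasts (log2 -0.58, SE 0.13, adjusted p = 0.00452, limma; -0.38 without plasma cell replicate 2, and -0.27 and not called with cyclic loess). Their difference from naive B cells (-0.43, adjusted p = 0.0282) was lost without naive B replicate 1 (-0.51) or 2 (-0.36) or plasma cell replicate 2 (-0.23), and with cyclic loess (-0.19). Usp8, which works on endosomes, read 7.26 and 7.09 in naive B cells, 7.30, 7.14 and 7.46 in plasmablasts and 7.43 and 7.23 in plasma cells, overlapped in all 3 comparisons and was called in none.

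In the signalling group Usp47, a relative of Usp7 that acts on DNA polymerase beta, read 9.48 and 9.40 in naive B cells, 10.81, 10.93 and 10.86 in plasmablasts and 10.79 and 10.75 in plasma cells. Naive B cells stood well below both LPS populations, which were close. Usp47 rose 2.69-fold in plasmablasts (log2 1.43, SE 0.08, adjusted p = 1.54e-06, limma) and 2.51-fold in plasma cells (log2 1.33, SE 0.09, adjusted p = 4.98e-06). In plasma cells this rise and that of Ube2j1 (1.29) differed by less than 1 SE. The difference between plasma cells and plasmablasts was -0.10, with an interval of -0.29 to 0.09.

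Usp25, a relative of Usp28, read 6.96 and 6.80 in naive B cells, 5.08, 5.11 and 5.42 in plasmablasts and 6.63 and 7.06 in plasma cells. It was above background on all arrays but those of plasmablasts. Plasmablasts were at least 1.16-fold below naive B cells (adjusted p = 2.41e-05, limma), and plasma cells at least 1.13-fold above plasmablasts (adjusted p = 3.42e-05). Usp12, which works with the WD-repeat proteins Uaf1 and Wdr20, had the same detection, at 6.88 and 6.65 in naive B cells, 5.70, 6.00 and 5.70 in plasmablasts and 6.83 and 6.56 in plasma cells, at least 1.07-fold below naive B cells (adjusted p = 0.000299) and at least 1.02-fold below plasma cells (adjusted p = 0.000491). Plasma cells against naive B cells were not called for Usp25 (-0.04, adjusted p = 0.854) or Usp12 (-0.07, adjusted p = 0.691).

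The summed signal of the myeloid markers, like the levels of Ube2f, Ube2a, Ube2n, Ube2d3, Ube2e2, Usp12 and Usp25, was lowest in plasmablasts. The markers did not all move that way: of 13 measured, 8 were lower and 2, S100a8 and S100a9, higher in plasmablasts than in naive B cells, and 11 were higher and 0 lower in plasma cells than in plasmablasts. Of the 18 listed, 9 were above background on some naive B array, 3 on some plasmablast array and 12 on some plasma cell array. Among those higher in plasma cells than in plasmablasts were Cd14 (at least 30.9-fold), Adgre1 (at least 30.3-fold) and Lyz2 (40.0-fold). The part of such cells in these members' levels was not tested.

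Usp9x, a large X-linked deubiquitinase known to protect the survival factor Mcl1, read 5.60 and 5.72 in naive B cells, 6.87, 6.69 and 6.71 in plasmablasts and 6.04 and 5.65 in plasma cells. Only plasmablast arrays were above background, and the gene is a member through them. They exceeded naive B cells at least 1.18-fold and plasma cells at least 1.40-fold, which is likewise a description with no test.

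Usp10, a partner of the stress granule protein G3bp1, read 6.63 and 6.86 in naive B cells, 7.61, 7.48 and 7.44 in plasmablasts and 6.97 and 7.14 in plasma cells. It rose 1.70-fold in plasmablasts (log2 0.76, SE 0.11, adjusted p = 0.000313, limma), and plasma cells were 1.37-fold below plasmablasts (adjusted p = 0.00559), a step of -0.13 that was not called with cyclic loess. The plasma cell difference from naive B cells (0.31, adjusted p = 0.0469) was lost without naive B replicate 1 (0.19), plasmablast replicate 1, 2 or 3 (0.31 each) or plasma cell replicate 2 (0.22), and it was -0.06 in the mean of its 2 probes. The dimmer probe, above background on 3 arrays, was not called against naive B cells in plasmablasts (0.38, adjusted p = 0.128, limma) or plasma cells (-0.42, adjusted p = 0.126). It was called lower in plasma cells than in plasmablasts (-0.80, adjusted p = 0.00749). G3bp1 itself was 2.33-fold lower in plasma cells than in naive B cells.

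Usp4, a relative of Usp11, read 9.32 and 9.57 in naive B cells, 9.30, 9.41 and 9.40 in plasmablasts and 9.46 and 9.83 in plasma cells. At the probe used it was called in no comparison. Its dimmer probe was called higher in plasma cells than in plasmablasts (0.34, adjusted p = 0.0207, limma). The gene was also called there in the mean of its probes, in the authors' normalized table, with cyclic loess and with the replicate number as a block. Usp39 read 10.60 and 10.59 in naive B cells, 10.71, 10.77 and 10.81 in plasmablasts and 10.33 and 10.18 in plasma cells. Plasma cells were lowest, 1.42-fold below plasmablasts (log2 -0.51, SE 0.09, adjusted p = 0.000917, limma). Their difference from naive B cells (-0.34, adjusted p = 0.0123) was lost without naive B replicate 1 (-0.33) or plasma cell replicate 2 (-0.26) and with cyclic loess (-0.22), and was -0.54 without plasma cell replicate 1.

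Usp53 and Usp54 encode related proteins of the family. Usp54 read 6.48 and 6.87 in naive B cells, 7.95, 8.16 and 7.84 in plasmablasts and 6.83 and 6.45 in plasma cells. Plasmablasts alone stood out, 2.47-fold above naive B cells (log2 1.30, SE 0.16, adjusted p = 0.000146, limma) and 2.53-fold above plasma cells (log2 -1.34 for plasma cells minus plasmablasts, SE 0.16, adjusted p = 0.000139). Usp53 read 6.50 and 6.59, then 7.24, 7.17 and 7.11, then 5.95 and 5.67 in the same order. For each of the 2 genes 1 naive B array was below background. Usp53 was 1.54-fold higher in plasmablasts than in naive B cells, and plasma cells, below background, were at least 1.86-fold under plasmablasts. Both differences are given with no test, since Usp53 met the detection rule only with the plasmablast arrays. Plasma cells were also at least 1.20-fold under naive B cells for Usp53 (adjusted p = 0.000633, limma). Usp6nl, the Rab regulator, was 2.29-fold lower in plasma cells than in plasmablasts (log2 -1.20, SE 0.10, adjusted p = 1.62e-05) and 1.74-fold lower than in naive B cells.

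Separate probes of a gene mostly moved together. Of 15 members with several probes, 14 had 1 sign over all probes and 13 had all probes on 1 side of the threshold when plasmablasts were set against naive B cells. When plasma cells were set against naive B cells these numbers were 13 and 9, and when they were set against plasmablasts 13 and 13. Usp1's 3 probes rose by 1.12, 1.15 and 1.27 in plasmablasts. Usp38 was the one member with probes called in opposite directions: the brighter gave 1.24 and the other 0.31 for plasmablasts against naive B cells, but 0.70 and -0.66 for plasma cells against naive B cells. In plasma cells against plasmablasts both Usp38 probes fell, by 0.54 and 0.98.

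**Figure D4:**
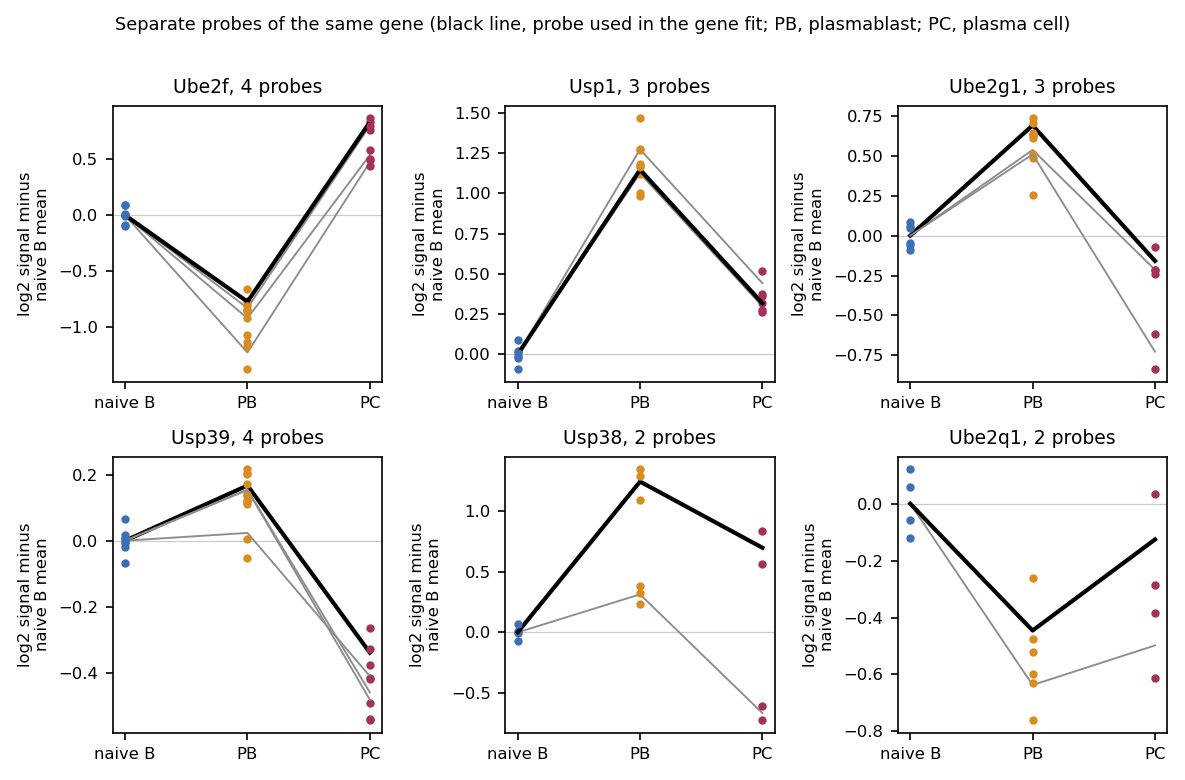
Log2 signal minus the naive B mean for each probe of 6 members with 2 to 4 probes (points, arrays; lines, probe means; black, the probe used for the gene). The 4 Ube2f probes fall by 0.77 to 1.23 in plasmablasts and lie 0.47 to 0.83 above naive B cells in plasma cells, whereas the Usp38 probes part in plasma cells.

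Detection set a further limit. Of the 48 members, 35 were above background on all arrays and 13 on some, and 74.7% of all genes were above background on all arrays. Ube2t, Usp37 and Usp9x were detected in plasmablasts only and Usp11 in naive B cells only. The other 24 genes of the name list had no probe that passed: Ube2c, Ube2d1, Ube2dnl2, Ube2e1, Ube2r2, Ube2u, Ube2v2, Usp13, Usp15, Usp17la, Usp17lb, Usp17lc, Usp17ld, Usp2, Usp24, Usp26, Usp27x, Usp29, Usp43, Usp44, Usp46, Usp48, Usp49 and Usp50. Just outside the rule, Ube2u was above background on 1 array, at 6.47 in naive B replicate 2, and so was a second probe of Ube2q2, at 6.67 there.

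The steps of the cascade around the members were as follows. These counts stand beside all genes, of which 35.3% were higher and 37.8% lower in plasmablasts than in naive B cells, 33.3% and 37.8% in plasma cells than in naive B cells, and 28.7% and 46.0% in plasma cells than in plasmablasts. The 5 measured E1 genes, Atg7, Nae1, Sae1, Uba3 and Uba7, all serve ubiquitin relatives. No E1 of ubiquitin itself was among the measured genes of this list. Of the 5, 1 was higher and 3 lower in each of the 3 comparisons. Atg7, the E1 of autophagy, was at least 1.29-fold lower in plasmablasts than in naive B cells. It was at least 2.13-fold higher in plasma cells than in plasmablasts. Of 5 measured E2 genes outside the Ube2 names, 3 were higher and 1 lower in plasmablasts than in naive B cells, with Ufc1, the E2 of the ER-linked modifier UFM1, up 2.07-fold. The SUMO pathway gave 3 higher and 5 lower of 13 in plasmablasts and 0 higher and 8 lower in plasma cells, each against naive B cells, and its protease gene Senp7 was 3.67-fold and 4.08-fold lower.

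Of 29 measured deubiquitinases of the other families, 14 were higher and 10 lower in plasmablasts than in naive B cells (median 0.16, all genes -0.02). In plasma cells 6 were higher and 13 lower than in naive B cells (median -0.17, all genes -0.08), and 5 higher and 18 lower than in plasmablasts (median -0.36, all genes -0.22). Uchl1 was at least 1.98-fold higher in plasmablasts than in naive B cells and at least 2.35-fold lower in plasma cells than in plasmablasts. It met the detection rule through plasmablasts alone, so its higher level there is a description with no test. Otud7b, a protease of lysine-11 chains and of NF-kB signalling, was at least 3.62-fold lower in plasma cells than in naive B cells.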

How the data were processed

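The authors deposited a table with the intensity of every probe on every array beside its detection p-value; per the file headers the table is not normalized, and per the submitters' processing notes it came from GenomeStudio 2011.1. The lowest deposited intensity was 101.8, so background was still present. A second deposited intensity table was quantile normalized, as checked by repeating that step (within 0.0119 log2 units), and served as an alternative. The log2 values were computed here from the deposited intensities with limma 3.58.1 in R 4.3.3 (neqc, offset 16, quantile normalization). Named probes above background (p under 0.01) on at least 2 arrays were kept (10113), and the probe with the highest mean stood for each gene (7425). Symbols were updated through the RefSeq gene table of GRCm38.p6. All 7 arrays entered a linear model of 3 population means (residual degrees of freedom 4, prior 3.78), tested with eBayes over all genes, and the pipeline was tested on simulated data. Bounded folds use the higher of a dim probe's own signal and the array's lowest signal above background. The members, the gene lists and the rules for naming genes were chosen with earlier results of these data known. Values on every array are given for the 5 largest called rises and falls per comparison and for a listed set of enzymes, and up to 3 called genes of each list are named. The number of arrays limits the precision.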

Additional observations from a re-analysis of the deposited data

How the results depend on the processing

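Counts come in the order plasmablasts against naive B, plasma cells against naive B, plasma cells against plasmablasts. Of the 98 called values of members (37, 27 and 34), 30, 14 and 26 kept their direction and call under every alternative run. The counts of called members ranged from 31 to 37, 20 to 27 and 30 to 36 when 1 array was left out, and from 35 to 40, 21 to 30 and 32 to 38 under the other alternatives, lowest for plasma cells against naive B cells with no detection filter. A called value turned its sign under 2 alternatives: Ube2d2a in plasma cells against plasmablasts was 0.014 with cyclic loess, and Usp10 in plasma cells against naive B cells was -0.056 in the mean of its probes. Usp38 in plasma cells against naive B cells was 0.02 in the mean of its probes. The authors' normalized table, in which background is not subtracted, gave a smaller difference for all 77 called values that are not lower limits, by over 1.5 times for 26 of them, and 1.69 in place of 2.21 for Ube2j1 in plasmablasts. An offset of 50 moved 5 values by over 1.5 times and cyclic loess 20. Cyclic loess ended the calls of 13 values, among them Usp28 in plasmablasts against naive B cells (0.41). With the replicate number as a block, 35, 27 and 36 members were called (22, 13 and 11 higher), and 6 calls were lost: Ube2q1 (-0.37) and Usp28 (0.39) in plasmablasts against naive B cells, Usp1 (0.32) and Usp10 (0.31) in plasma cells against naive B cells, and Ube2d2a (-0.26) and Usp22 (-0.23) in plasma cells against plasmablasts. Deviations of same-numbered arrays correlated at -0.0316 to 0.168, with 0.168 and 0.0906 for the pairs of plasmablasts and plasma cells. In a population of 2 arrays the deviations mirror each other, so these values cannot decide whether same-numbered arrays are paired. The labels do not say so either, and the block is given as an alternative only. Where leaving out an array left 1 array in a population, that array was assumed to vary like the rest. Signal limits what can be read: 13 members were below background on some arrays.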
